A study of Mus musculus with 10 samples.

Results

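The Ifit genes encode interferon-induced proteins with tetratricopeptide repeats. The members described here were the rows of the deposited table named Ifit1, Ifit1bl2, Ifit2 and Ifit3, all 4 of which were present among 14738 genes. They were chosen with the contrast between genotypes known, because Ifit1bl2 was much higher under the Flcn KO label. Their difference between genotypes is therefore given as a description, with standard errors and without a test. The table held 6 genes of the family in all, and the other 2, Ifit1bl1 and Ifit3b, are given beside the members.

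RNA was sequenced from regulatory T (Treg) cells of mouse spleen, 5 libraries per genotype. All mice were mixed bone-marrow chimeras, made with equal parts of CD45.1+ marrow and of tested marrow, so the sorted cells had developed beside normal cells. The tested marrow was Foxp3Cre (WT) or Foxp3CreFlcnfl/fl (Flcn KO), and both groups thus carried the Foxp3-driven Cre, which acts in Foxp3-expressing cells. Sorting kept CD4+ Foxp3-YFP+ cells that were CD45.2+ and CD45.1-. The labels give no age, sex, host strain or batch. Library codes run through all WT before all Flcn KO libraries, so an effect of that order cannot be told apart from genotype. Flcn encodes folliculin, which acts on Rag GTPases at the lysosome. Its own RNA went against the label: WT averaged 54.2 ± 13.8 normalized counts and those labelled Flcn KO 138 ± 14.4 (SD over 5 libraries, limma adjusted p = 0.00476). The table does not show where in the gene these reads fell. The genotypes could not be checked by it, and every direction below is that of the labels.

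Ifit proteins bind RNA and form part of the antiviral response. Type I interferon acts through its receptor, Ifnar1 with Ifnar2, and through a transcription factor complex that binds the interferon-stimulated response element (ISRE) in promoters of target genes. Ifit1 binds the 5′ end of RNA that lacks the cap methylation of the host and blocks its translation. Ifit2 is a second family member with roles in translation and cell death, and human IFIT3 binds and stabilises IFIT1. Ifit1bl2 is a mouse relative of Ifit1.

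The promoter windows of Ifit1bl2, its close neighbour Ifit1, its relative Ifit1bl1 and Ifit3 are shown because the first pair shares one stretch of DNA while only Ifit1bl2 had groups far apart. The sequences are from RefSeq on GRCm38.p6, another build than the mm9 named in the submitters' processing notes, and each runs 5′ to 3′ on the gene's own strand from 250 bases before to 50 bases after an annotated start. Capitals mark matches to the ISRE core, spelled GAAA, then NN, then GAAA, on either strand, where N is any base. No match overlapped another.
Ifit1bl2, upstream start, chr19:34640694-34640993, minus strand: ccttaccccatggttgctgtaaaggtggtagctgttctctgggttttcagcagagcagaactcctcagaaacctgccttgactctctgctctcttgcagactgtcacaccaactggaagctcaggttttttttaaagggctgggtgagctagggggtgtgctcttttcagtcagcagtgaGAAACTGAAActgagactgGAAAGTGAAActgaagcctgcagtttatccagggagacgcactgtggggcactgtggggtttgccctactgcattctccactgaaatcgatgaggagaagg
Ifit1, chr19:34640639-34640938, plus strand: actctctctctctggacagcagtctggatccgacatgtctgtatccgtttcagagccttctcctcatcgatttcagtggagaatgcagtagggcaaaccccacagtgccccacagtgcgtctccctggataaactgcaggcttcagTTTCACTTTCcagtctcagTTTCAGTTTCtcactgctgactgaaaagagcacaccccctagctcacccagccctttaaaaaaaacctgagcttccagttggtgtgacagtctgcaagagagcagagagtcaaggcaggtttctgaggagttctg
Ifit1bl2, internal start, chr19:34629762-34630061, minus strand: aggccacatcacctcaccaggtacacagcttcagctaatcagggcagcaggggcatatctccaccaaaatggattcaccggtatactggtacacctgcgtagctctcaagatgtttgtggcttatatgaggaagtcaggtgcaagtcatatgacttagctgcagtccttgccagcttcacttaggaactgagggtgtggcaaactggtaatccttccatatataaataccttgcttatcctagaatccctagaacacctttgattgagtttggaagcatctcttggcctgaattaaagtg
Ifit1bl1, upstream start, chr19:34601919-34602218, minus strand: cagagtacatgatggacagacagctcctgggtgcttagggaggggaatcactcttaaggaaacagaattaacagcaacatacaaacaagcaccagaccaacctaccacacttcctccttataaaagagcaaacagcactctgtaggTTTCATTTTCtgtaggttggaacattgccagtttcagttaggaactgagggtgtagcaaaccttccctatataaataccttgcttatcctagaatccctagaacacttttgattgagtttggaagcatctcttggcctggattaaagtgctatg
Ifit3, chr19:34583279-34583578, plus strand: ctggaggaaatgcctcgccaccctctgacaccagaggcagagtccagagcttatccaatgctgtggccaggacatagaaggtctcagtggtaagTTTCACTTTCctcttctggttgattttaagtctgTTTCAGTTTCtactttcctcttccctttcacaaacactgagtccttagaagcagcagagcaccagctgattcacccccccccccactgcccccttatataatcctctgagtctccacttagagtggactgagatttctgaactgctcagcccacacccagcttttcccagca

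Ifit1 and Ifit1bl2 are transcribed away from each other from starts 146 bases apart, and their windows share 245 bases, identical apart from the strand. The shared stretch holds both ISRE cores of either window. Seen from Ifit1bl2, GAAACTGAAA begins 70 bases and GAAAGTGAAA begins 51 bases before the start. From Ifit1, on the other strand, the first of these begins 85 bases and the second 104 bases before its start. Of 32851 RefSeq promoter windows of this length in the mouse table, 3.44% held at least 1 such core, and Ifit3 and Ifit3b held 2 each and each window of Ifit1bl1 held 1.

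A second annotated start of Ifit1bl2 lies 10932 bases downstream of the first, inside the gene. Its window had no ISRE core, and it resembled the window at the upstream start of Ifit1bl1 instead, with 119 identical bases of 125 aligned (95.2%). The windows of both Ifit2 starts had no core either. None of the 9 windows of the family held CACGTG, the E-box that MiT/TFE factors can bind, or TCATGTG, which were present in 7.15% and 3.77% of all windows on either strand. These searches describe letters in the windows and say nothing about which factor was bound. Values per gene do not show which start of Ifit1bl2 was used.

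**Figure D1:**
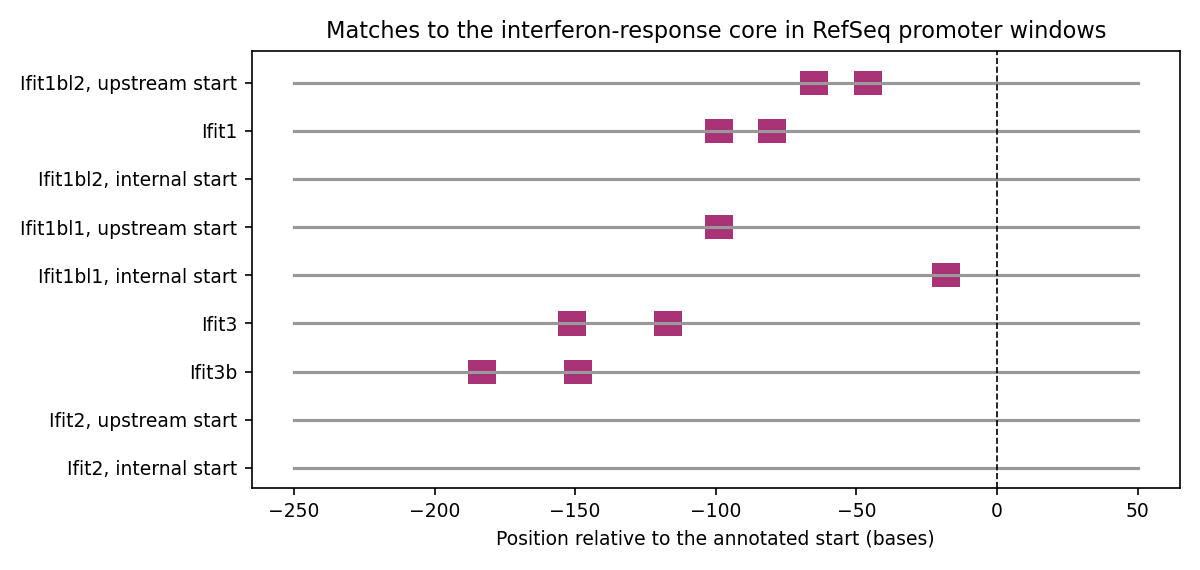
Matches to the ISRE core in RefSeq promoter windows of the 6 Ifit genes, with the position relative to each annotated start in bases on the x axis (dashed line, start) and 1 line per window. Coloured blocks are matches on either strand; the window at the upstream start of Ifit1bl2 and that of Ifit1 hold the same pair of matches, and the window at the internal start of Ifit1bl2 holds none.

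The libraries held 1914516 to 4153854 reads in the genes of the table, recovered as whole numbers from the normalized values and called reads here. A normalized count is a read count divided by 1 size factor per library, and 1 read was worth 0.628 to 1.27 of it. WT replicate 1 stood apart, with 44.1% of its reads from mitochondrial rRNA against 24.7% to 31.8% in the others. Foxp3, which defines Treg cells, had 1056 to 1384 and Cd4 1102 to 1697 normalized counts in all libraries, with overlapping groups. Of 9 Treg markers, Il2ra rose and Ikzf2 fell by limma (adjusted p = 0.0292 and 0.0336, beside 1.71% of all tested genes called). Ctla4, Tnfrsf18 and Cd3g were lower without overlap and without a limma call. Of the 9, 4 were lower and 1 was higher without overlap, beside 2.45% and 2.47% of all tested genes. EdgeR called 2 lower and 1 higher, beside 275 lower and 317 higher of 10493 genes. DESeq2 called 3 lower and 1 higher, beside 348 lower and 379 higher of 14738 genes. The p-values below measure the spread between these libraries.

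Ifit1bl2 was near its detection limit in the WT libraries and clearly measured in every library labelled Flcn KO. Its normalized counts in WT replicates 1 to 5 were 1.24, 2.85, 3.82, 3.40 and 4.20, from 1 to 4 reads each. In Flcn KO replicates 1 to 5 they were 105, 77.7, 68.5, 84.2 and 85.4, from 62 to 136 reads each. The groups did not overlap, and the lowest library labelled Flcn KO lay far above the highest WT library. Of all 14723 tested genes, 4.92% had groups that did not overlap, 2.47% with Flcn KO above WT. The mean went from 3.10 ± 1.16 to 84.3 ± 13.6 (SD, n = 5 each).

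On the log2(normalized count + 1) scale the difference for Ifit1bl2 was 4.42 (SE 0.23), rank 3 among all tested genes. The authors' deposited table gives a log2 fold change of 4.77 (SE 0.42). In reads, 15 fell in the WT libraries and 476 in the libraries labelled Flcn KO, a ratio of 27.5 after scaling (95% exact binomial interval 16.5 to 49.6, counting error only). The added 1 matters for so few reads, and with 5 added in its place the difference was 3.46. Without WT replicate 1, the library with 1 read, it was 4.22.

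**Figure D2:**
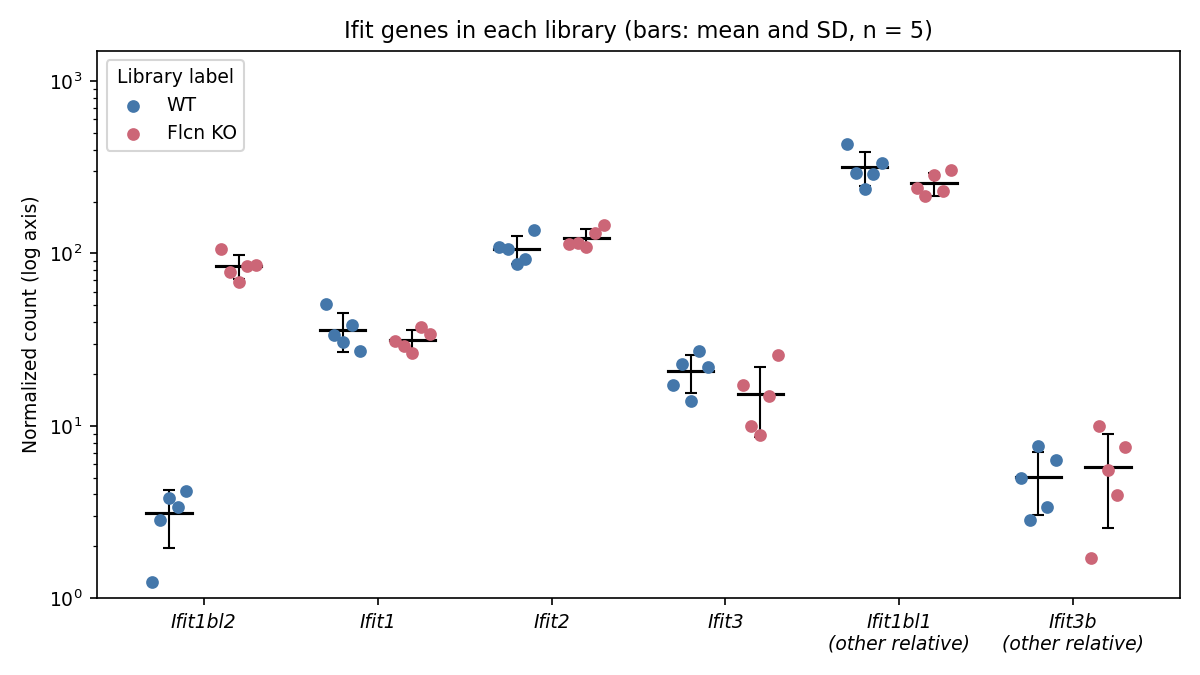
Normalized counts (log axis) of the 6 Ifit genes in each library, blue for WT and red for Flcn KO, with the mean and SD over 5 libraries. Ifit1bl2 lies at 1.24 to 4.20 in WT and at 68.5 to 105 in the libraries labelled Flcn KO, and the groups of every other Ifit gene overlap.

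Ifit1, whose start lies next to that of Ifit1bl2, showed no such separation. Its normalized counts in WT replicates 1 to 5 were 50.8, 33.5, 30.6, 38.5 and 27.3. In Flcn KO replicates 1 to 5 they were 30.9, 28.9, 26.5, 37.7 and 33.9. WT replicate 1 was the highest and Flcn KO replicate 3 the lowest, and the others of both groups lay between 27.3 and 38.5. The means were 36.1 ± 9.17 and 31.6 ± 4.35, a log2 difference of -0.17 (SE 0.18), which came to -0.04 (SE 0.15) without WT replicate 1.

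Ifit2 had the highest mean level per kb of transcript of the 4 members in both groups. It had 109, 107, 86.6, 92.9 and 136 normalized counts in WT replicates 1 to 5. It had 113, 115, 109, 131 and 146 in Flcn KO replicates 1 to 5. Flcn KO libraries lay above WT replicates 1 to 4, by little for Flcn KO replicate 3, but WT replicate 5 exceeded all of them except Flcn KO replicate 5, so the groups overlapped. The means were 106 ± 19.3 and 123 ± 15.3, with a log2 difference of 0.22 (SE 0.15).

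The normalized counts of Ifit3 were 17.3, 22.8, 14.0, 27.2 and 22.0 in WT replicates 1 to 5 and 17.1, 9.99, 8.84, 14.9 and 25.7 in Flcn KO replicates 1 to 5. The lowest values were in Flcn KO replicates 2 and 3 and the highest in WT replicate 4, and the groups overlapped. The means were 20.7 ± 5.11 and 15.3 ± 6.76, a log2 difference of -0.47 (SE 0.29). Over these 3 relatives the difference was thus at most 0.47 in size on a log2 scale, positive for Ifit2 and negative for Ifit1 and Ifit3, beside a median of 0.003 over all tested genes. Each of these signs was kept in every fit with 1 library left out. Such fits share most of their libraries, so a kept sign does not test the direction.

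The 2 family genes outside the rule did not pass the test. Ifit1bl1, the closest relative of Ifit1bl2, averaged 317 ± 71.8 normalized counts in WT against 255 ± 38.7 in those labelled Flcn KO (log2 difference -0.30, SE 0.18, limma adjusted p = 0.515). Its WT libraries ranged from 238 to 430, with WT replicate 1 the highest, and its Flcn KO libraries from 216 to 306. Ifit3b rested on 2 to 12 reads per library, and its means were 5.03 ± 1.99 and 5.75 ± 3.19 (0.08, SE 0.38, limma adjusted p = 0.96). Summed over the 5 relatives of Ifit1bl2, the family held 486 ± 88.6 normalized counts in WT against 431 ± 53.7 in Flcn KO libraries.

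How far relatives could trade reads was measured on GENCODE vM21 transcripts (GRCm38), by asking which windows of a transcript occur without mismatch in a relative. Of 3318 windows of 50 bases in Ifit1bl2, 9.34% also occurred in a relative, 184 of them in Ifit1 and 140 in Ifit1bl1, and none in a transcript of any other gene. With windows of 100 bases the share was 2.91%. Ifit1 shared 7.13% and Ifit1bl1 6.60% of their windows of 50 bases, and Ifit2 shared none. The sources used here give neither read length, nor strand use in counting, nor the handling of multiply aligned reads, so these are not shares of reads. RefSeq's whole gene span of Ifit1bl1 reaches past both of its starts in the promoter table and overlaps Ifit3b, Ifit1bl2 and Ifit1, whereas GENCODE's span of it overlaps none of them.

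Ifit3 and Ifit3b are the pair that cannot be separated well. Their coding sequences were identical at 1198 of 1209 bases (99.1%), and 51.2% of the 50-base windows of Ifit3 also occurred in Ifit3b, so the split between them is uncertain. Their sum was 25.7 ± 3.84 in WT against 21.1 ± 7.16 in Flcn KO libraries, with overlapping ranges of 21.6 to 30.6 and 14.4 to 33.3. Ifit1bl2 was closest to Ifit1bl1, with 88.2% of aligned coding bases identical, then to Ifit1 with 75.8%, and 57.1% to 60.1% were identical to the other relatives.

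Levels of different genes can be set side by side only per length, here as normalized counts per kb of the longest protein-coding GENCODE transcript, or of the longest one for a gene with no coding transcript. In WT the order was Ifit1bl1 at 144 ± 32.6, Ifit2 at 27.9 ± 5.05, Ifit1 at 13.6 ± 3.45, Ifit3 at 11.8 ± 2.93, Ifit3b at 2.51 ± 1.00 and Ifit1bl2 at 0.921 ± 0.343 (SD, n = 5). Ifit1 and Ifit3 overlapped there and the other neighbours in this order did not. In the libraries labelled Flcn KO, Ifit1bl2 came next after the leading pair, at 25.0 ± 4.04, behind Ifit1bl1 at 116 ± 17.6 and Ifit2 at 32.2 ± 4.02. Its range of 20.3 to 31.3 overlapped that of Ifit2, 28.7 to 38.3, and lay above that of Ifit1, 9.99 to 14.2. Ifit1 and Ifit3 overlapped again, and Ifit3b was lowest at 2.87 ± 1.59.

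Among 14284 tested genes with a transcript length, the mean of Ifit1bl2 per kb stood above 3.79% of genes in WT and above 64.4% under the Flcn KO label. For Ifit1 these positions were 48.1% and 44.6%, for Ifit2 67.3% and 70.9%, and for Ifit3 44.6% and 37.0%. Ifit1bl2 made up 0.487 ± 0.217% of the family's summed level per kb in WT against 12.8 ± 2.40% in Flcn KO libraries, with ranges of 0.144% to 0.730% and 10.3% to 16.3%. Ifit1bl1 made up most of the family in all libraries, with 69.6% to 76.4% in WT against 55.5% to 66.1% in Flcn KO libraries.

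**Figure D3:**
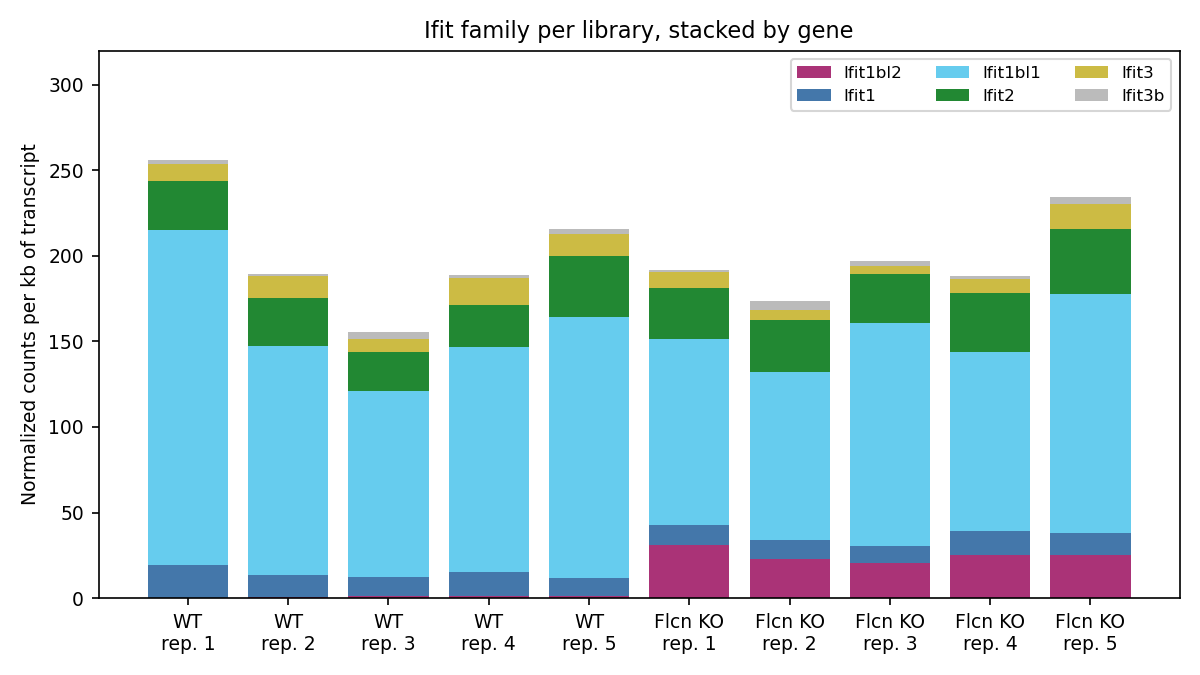
Normalized counts per kb of transcript (y axis) of the 6 Ifit genes, stacked by gene, 1 bar per library from WT replicate 1 to Flcn KO replicate 5. Ifit1bl1 is the main part of each bar, and the Ifit1bl2 part at the bottom is 0.144% to 0.730% of a WT bar and 10.3% to 16.3% of a Flcn KO bar.

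Within a genotype the spread of the members was 0.631 to 1.79 times that of counting alone. The SD of Ifit1bl2 over the libraries labelled Flcn KO was 1.52 times the SD that counting alone would give, and over the WT libraries 0.631 times. The corresponding ratios were 0.795 to 1.48 for Ifit1, 1.41 to 1.79 for Ifit2 and 1.07 to 1.71 for Ifit3. Ifit1bl1, with 187 to 488 reads per library, had ratios of 2.48 to 3.89.

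Whether members went up and down together was examined on deviations from each genotype's mean, which do not use the contrast. Of 6 pairs over 10 libraries none passed an exact two-sided permutation test within genotype (14400 rearrangements, smallest adjusted p = 0.387 for Pearson's r). Ifit1bl2 and Ifit1, which share the promoter stretch, had r = -0.63 (exact permutation p = 0.129, adjusted p = 0.387) and Spearman's rho = -0.31 (exact permutation p = 0.438, adjusted p = 0.657). That value rested on the extreme libraries: r was 0.20 without the 2 libraries farthest from the median of Ifit1bl2, and 0.004 without WT replicate 1, which had 1 read of Ifit1bl2 and the most Ifit1.

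The largest positive r was that of Ifit2 and Ifit3 (r = 0.52, exact permutation p = 0.116, adjusted p = 0.387; rho = 0.33, exact permutation p = 0.346, adjusted p = 0.657), which was 0.29 without the 2 farthest libraries. Ifit1bl2 had r = 0.04 with Ifit2 (exact permutation p = 0.930, adjusted p = 0.930; rho = 0.02, exact permutation p = 0.977, adjusted p = 0.977), and r = -0.25 without the 2 farthest libraries. With Ifit3 it had r = 0.32 (exact permutation p = 0.302, adjusted p = 0.602; rho = 0.44, exact permutation p = 0.210, adjusted p = 0.657), and 0.34 without those libraries. Neither relation passed the test.

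Ifit1 had r = 0.06 with Ifit2 (exact permutation p = 0.902, adjusted p = 0.930; rho = 0.14, exact permutation p = 0.740, adjusted p = 0.889), and 0.62 without the 2 libraries farthest for Ifit1. With Ifit3 it had r = 0.27 (exact permutation p = 0.401, adjusted p = 0.602; rho = 0.41, exact permutation p = 0.256, adjusted p = 0.657), and 0.73 without them. These values rest on 5 libraries per genotype, with 1 to 4 reads of Ifit1bl2 per WT library and 8 to 54 reads of Ifit1 or Ifit3, and a p that misses the threshold does not show that a relation is absent.

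The Ifit genes lie side by side on mouse chromosome 19, and the nearest genes of the table were examined in their RefSeq order. On one side lie Lipa, which encodes the lysosomal acid lipase, the death receptor gene Fas, Acta2, Stambpl1 and Lipo3, and on the other Pank1, Kif20b, Rpp30, Pcgf5 and Hectd2. Of these 10 genes together with Ifit1bl1 and Ifit3b, 12 in all, 1 rose and none fell by limma at the adjusted threshold of 0.05, beside 0.944% of all tested genes higher and 0.768% lower. Lipa, directly next to Ifit2, averaged 206 ± 41.5 normalized counts in WT against 192 ± 16.9 in those labelled Flcn KO (log2 difference -0.08, SE 0.16, limma adjusted p = 0.88).

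The riser was Hectd2, the farthest of these genes, which encodes a protein with the HECT domain of ubiquitin ligases. It rose from 35.0 ± 8.37 to 71.7 ± 16.5 normalized counts (log2 difference 1.01, SE 0.21, limma adjusted p = 0.0466). It lost its call in 9 of the 10 fits with 1 library left out (adjusted p 0.0436 to 0.118), and kept it without Flcn KO replicate 1. Its log2 difference in those fits was 0.92 to 1.14. EdgeR (adjusted p = 0.00545) and DESeq2 (adjusted p = 0.000763) also called it. Limma with replicate number as a block did not (adjusted p = 0.0724). Pank1, on the Ifit1 side, had 2.30 ± 1.39 and 2.74 ± 2.76 normalized counts, and the log2 differences of the genes between Lipo3 and Pcgf5 other than the Ifit genes ran from -0.35 to 0.43.

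**Figure D4:**
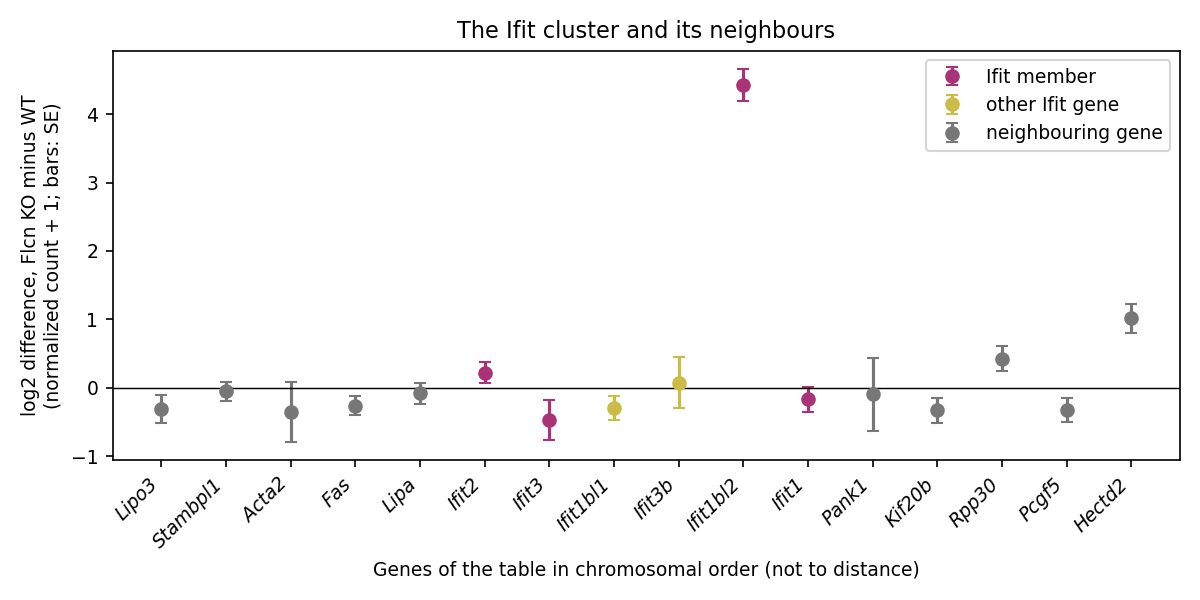
Log2 difference between genotypes (Flcn KO minus WT, log2(normalized count + 1), bars SE) for the Ifit genes and their neighbours on chromosome 19, in chromosomal order without distances. Ifit1bl2 is at 4.42, the next highest value is Hectd2 at 1.01, and all other genes lie between -0.47 and 0.43.

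Genes of the interferon pathway outside the Ifit family were read beside the members, and none of those tested rose by limma. In 4 lists chosen by role, 102 of 113 genes were tested. Of these, 2 (1 effector and 1 interferon gene) fell by limma, beside 0.768% of all tested genes, and the share that rose among all tested genes was 0.944%. At an unadjusted p under 0.05, 7 were lower and 4 higher, and the matching share over all genes was not counted. DESeq2 on the recovered reads called 7 lower and 1 higher, beside 348 lower and 379 higher of 14738 genes. EdgeR, which tested 89 of the 102, called 4 lower and 1 higher, beside 275 lower and 317 higher of 10493 genes. The median log2 difference of the 102 genes was -0.06, beside 0.003 over all tested genes.

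Among receptors, kinases, transcription factors and feedback regulators none of 20 passed in limma, while DESeq2 and edgeR each called 1 higher and 1 lower, and 3 had an unadjusted p under 0.05 (2 higher, 1 lower). The receptor chain gene Ifnar2 averaged 213 ± 25.5 normalized counts in WT against 159 ± 14.6 in those labelled Flcn KO (log2 difference -0.42, SE 0.13, limma adjusted p = 0.164), and Ifnar1 404 ± 26.7 and 359 ± 23.9 (-0.17, SE 0.11, limma adjusted p = 0.549). The groups did not overlap for either chain, and these were the 2 such genes of the 20. Over all 102 pathway genes 7 were lower and 1 was higher without overlap, beside 2.45% and 2.47% of all tested genes. The 2 higher genes at an unadjusted p under 0.05 were the feedback inhibitor gene Socs3 (0.52, SE 0.18, limma adjusted p = 0.219) and the type II receptor chain gene Ifngr2 (0.35, SE 0.16, limma adjusted p = 0.349), named after their values were seen. Among the transcription factor genes, Stat2 had a log2 difference of -0.09 (SE 0.17), Irf9 of -0.11 (SE 0.13) and Irf7 of -0.23 (SE 0.38), and none of these passed.

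Of 17 sensors and adaptors of foreign nucleic acids none passed in limma or edgeR. DESeq2 called 1 lower, and 1 was lower at an unadjusted p under 0.05. Their median was -0.10. Of 64 other interferon-stimulated effectors the chemokine gene Cxcl10 fell, from 10.6 ± 1.99 to 3.19 ± 1.70 normalized counts (-1.57, SE 0.31, limma adjusted p = 0.0336), and their median was -0.01. EdgeR called 3 lower and DESeq2 4 lower, and neither called any higher, with the counts over all genes as given above. At an unadjusted p under 0.05, 4 were lower and 2 higher. Without overlap 4 were lower and 1 higher, beside 2.45% and 2.47% of all tested genes. Among those 4 were Slfn8 (-0.53, SE 0.12, limma adjusted p = 0.0594) and Eif2ak2 (-0.50, SE 0.11, limma adjusted p = 0.0654), named after their values were seen. The antiviral genes Mx1 (-0.46, SE 0.24), Oasl2 (-0.36, SE 0.31) and Rsad2 (-0.45, SE 0.69) did not pass. The ubiquitin-like modifier gene Isg15 (0.62, SE 0.50) and its protease gene Usp18 (0.18, SE 0.15) did not pass either, and Isg15 had at most 9.45 normalized counts in any library.

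Of 8 interferon genes in the list, Ifng, the type II interferon, was in the table. It fell from 20.7 ± 9.63 to 2.32 ± 2.53 normalized counts (-2.82, SE 0.57, limma adjusted p = 0.0392), with overlapping groups. Cxcl10 lost its call in 8 of 10 fits with 1 library left out (adjusted p 0.0409 to 0.0903), and was called without Flcn KO replicate 3 or Flcn KO replicate 4. Ifng also lost it in 8 (adjusted p 0.0245 to 0.101), and was called without WT replicate 2 or Flcn KO replicate 3. Over these fits the log2 difference ran from -1.70 to -1.34 for Cxcl10 and from -3.24 to -2.46 for Ifng. DESeq2 called Cxcl10 (adjusted p = 0.0325) and Ifng (adjusted p = 2.68e-05). EdgeR tested neither gene after its filter. With a pseudocount of 0.5, limma called Cxcl10 (adjusted p = 0.047) but not Ifng (adjusted p = 0.0583). Limma with replicate number as a block called Ifng (adjusted p = 0.0256) but not Cxcl10 (adjusted p = 0.0898).

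**Figure D5:**
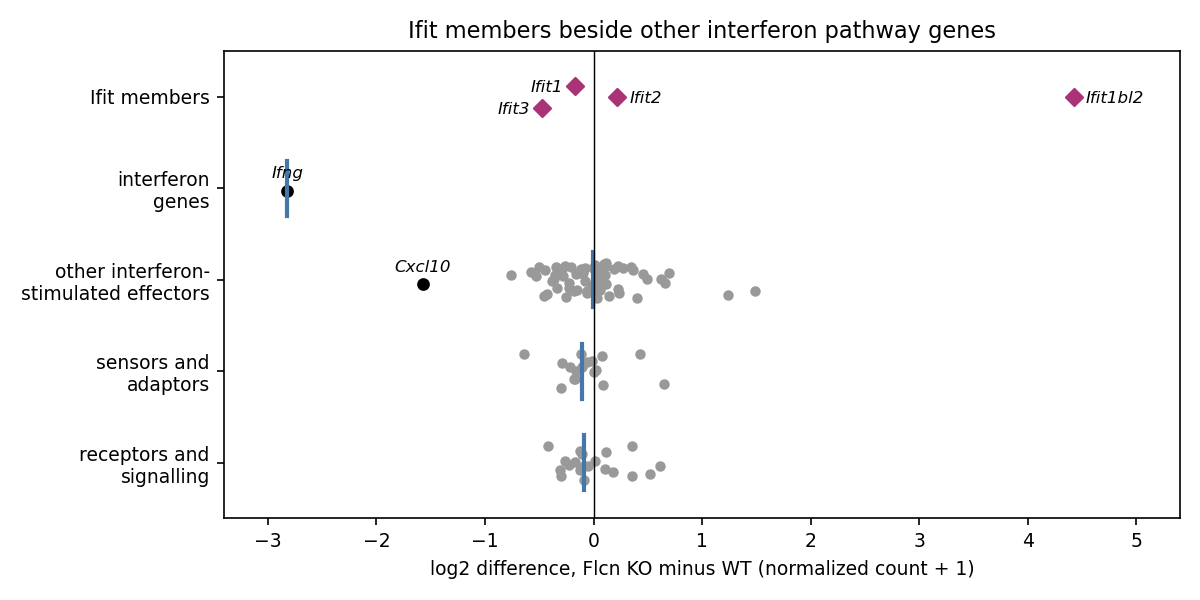
Log2 difference between genotypes (x axis, Flcn KO minus WT, log2(normalized count + 1)) of the 4 Ifit members (diamonds) and of genes in 4 interferon pathway lists (points, black where limma's adjusted p is under 0.05; vertical offsets within a row only separate points; blue lines, list medians). Ifit1bl2 at 4.42 lies outside the range of the lists, which runs from -2.82 (Ifng) to 1.49.

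The genes whose profile over the 10 libraries was most like that of Ifit1bl2 were Myo6, Hpgds, Itga6, Rragd and Grina. Likeness was the root mean square difference between log2 profiles standardized to mean 0 and SD 1, among 7362 genes at or above the median level, and it was 0.187 to 0.222 for these 5. They encode myosin VI, the prostaglandin D synthase of blood cells, an integrin alpha chain, a Rag GTPase and a membrane protein. Every one of them had its higher mean under the Flcn KO label, which the profile of Ifit1bl2 fixes, and their log2 differences ran from 0.87 for Itga6 to 3.63 for Hpgds. The nearest Ifit gene was Ifit2, with a value of 1.01 that 1294 of the compared genes undercut.

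The genes most like Ifit1 were others: Lpp, Elf2, Rasgrp1, Mia2 and Strn3, at 0.236 to 0.404. Their log2 differences between genotypes were small, from -0.24 to -0.04. All 5 had their highest value in WT replicate 1, as Ifit1 did, so this likeness shares the library that stood apart.

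Markers of other cell types were measured in the same libraries. The summed level of 10 B-cell markers was 90.4 to 145 normalized counts in WT against 119 to 270 in Flcn KO libraries, with overlapping ranges. By limma 1 of these markers, Fcmr, was higher, beside 0.944% of all tested genes, and neither edgeR nor DESeq2 called any. By log2 difference 9 of the 10 were higher under the Flcn KO label, 3 of them at an unadjusted p under 0.05 (limma). For the counts of signs and of unadjusted p in this paragraph, the matching shares over all genes were not counted. These counts can thus not be set against a background. The sum of 10 tabulated myeloid and dendritic markers was 76.8 to 279 and 144 to 389, also overlapping. None was called by limma, edgeR or DESeq2, and 3 were higher at an unadjusted p under 0.05. By log2 difference 9 of these 10 were higher and 1 lower. Of 7 listed markers of plasmacytoid dendritic cells, which make much type I interferon, 5 were tabulated. Their sum was 152 to 180 and 480 to 572, without overlap. Ccr9, a gene chosen with its rise known, carried much of that sum. The other 4 summed to 70.6 to 95.5 and 99.9 to 177, also without overlap, but each of these 4 overlapped on its own. Tcf4 carried much of this second sum, at 38.4 to 66.2 in WT and 63.3 to 85.1 in Flcn KO libraries. All 5 were higher by log2 difference, 3 of them at an unadjusted p under 0.05, and limma called only Ccr9. Siglech, a defining marker of these cells, had overlapping ranges of 2.48 to 14.7 and 5.95 to 35.4.

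The sums of 6 CD8 T and NK cell markers overlapped, at 45.1 to 76.8 and 40.0 to 74.0. None of the tabulated markers was at 0 in all libraries, but the lowest mean of any gene in the table was 2.02 normalized counts. Such a gene could therefore not appear, and this says nothing about the cells present. The listed markers Cd14, Xcr1, Klk1, Cox6a2, Ncr1 and Klrb1c were not in the table. The part of other cells in the Ifit1bl2 values was not tested, and in bulk RNA fewer or more cells of a type and less or more RNA per cell cannot be told apart.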

How the data were processed

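The deposited table gave 1 column of signal per library, read here as normalized counts because of the whole multiples described next, and the authors' mean. The authors also deposited log2 fold changes and their errors, a test statistic (a score) and p-values, raw and adjusted. The submitters' processing notes name Trimmomatic (0.36), STAR (2.5.3a), RSEM (1.3.1), DESeq2 (1.24.0) and mm9 without roles, and no source used here gives annotation or filters. All values were whole multiples of 1 read within 0.01 reads (100% in each library), so whole numbers were recovered and are called reads. Whether they were counted reads or rounded estimates is not shown.

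Members and gene lists were chosen with earlier results of these data known. Limma 3.58.1 (R 4.3.3) was run on log2(normalized count + 1) of 14723 genes with a value of 1 or more in at least 5 libraries, with genotype alone and Benjamini-Hochberg adjustment (threshold 0.05). In simulated counts it called 60 of 100 genes changed by 1 on the log2 scale and 100 of 100 changed by 2. Beside these true calls there were 10 false calls, with 14737 genes tested. Every simulated gene had the same dispersion of 0.03, so genes with a larger spread were not covered. Genes with few reads were not among those changed. A gene that missed the threshold may thus still differ. EdgeR 4.0.16 and DESeq2 1.42.0 on recovered reads, other pseudocounts, filters and scaling, a replicate block and leaving out each library were alternatives. Depth was 1914516 to 4153854 reads per library, and intervals cover counting error only. Alignments used Biopython 1.88; of 113 pathway genes, 102 were found in the table by their own symbols. Named genes were the members, other Ifit genes, the 5 nearest tabulated genes on either side, up to 4 called genes per list, a fixed interferon panel, and the 5 genes most like Ifit1bl2 and Ifit1. Of the panel, 1 gene is not reported here.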

Additional observations from a re-analysis of the deposited data

Results flagged for a closer look

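Of 80 groups of 5 libraries examined for 40 named genes, 4 held a library whose gap to the nearest other exceeded 0.71 of the group's range, and chance gives about 1 in 20. Isg15 was 9.45 normalized counts in WT replicate 5 against 0 to 2.48 in the other WT libraries. WT replicate 1 was the highest for the other 3 genes. Elf2 was 510 there against 377 to 412, Strn3 was 456 against 256 to 298, and Flcn was 78.0 against 45.6 to 54.7. Elf2 and Strn3 were named for their likeness to Ifit1, itself highest in WT replicate 1, so the chance rate does not apply to them. No Ifit member was flagged.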

How the results depend on the processing

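Ifit1bl2 had a log2 difference of 3.46 with a pseudocount of 5, 4.62 with one of 0.5, 4.71 in edgeR, 4.77 in DESeq2, 4.22 to 4.52 with 1 library left out, and 4.42 in the other settings. The differences of Ifit1 (-0.26 to -0.04), Ifit2 (0.15 to 0.31) and Ifit3 (-0.67 to -0.31) kept their sign with 1 library left out and in every other setting. The settings share their libraries, so kept signs do not test a direction. The correlations within genotype did not pass in any setting; with 1 library left out they ran from -0.81 to 0.004 for Ifit1bl2 with Ifit1, -0.38 to 0.23 with Ifit2, 0.21 to 0.52 with Ifit3, -0.11 to 0.67 for Ifit1 with Ifit2, 0.12 to 0.60 for Ifit1 with Ifit3, and 0.31 to 0.70 for Ifit2 with Ifit3. The interferon pathway lists held 2 called genes in the main fit, 1 with a pseudocount of 0.5, 7 when eBayes used trend and robust fitting, 5 in edgeR, 8 in DESeq2 and 0 to 2 with 1 library left out. The 12 genes of the locus other than the members, Ifit1bl1 and Ifit3b among them, held 1 call, that of Hectd2. They held 0 with a pseudocount of 0.5 and 0 to 1 with 1 library left out. Over all genes 252 were called, 598 with that eBayes, 592 in edgeR, 727 in DESeq2 and 122 to 217 with 1 library left out; the cause was not tested. The replicate numbers did not pair the libraries (correlation of same-numbered deviations 0.00923 to 0.0325, with 1 WT library and 0 Flcn KO libraries closest to its own number). With the replicate block 59 genes were called in all, 1 in the pathway lists and 0 among those 12 genes of the locus. TMM scaling moved the median of all genes from 0.003 to 0.006 on the log2 scale. Depth limits Ifit1bl2 in WT, at 1 to 4 reads per library.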

Other observations

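The Ifitm genes, which share a name stem with the Ifit genes but encode unrelated membrane proteins that restrict virus entry, were picked after their values were seen. Ifitm2 averaged 1.74 ± 1.65 normalized counts in WT against 5.46 ± 1.55 in those labelled Flcn KO (log2 difference 1.49, SE 0.46, limma adjusted p = 0.173). Ifitm3 had 6.43 ± 3.86 and 14.6 ± 5.03 (1.24, SE 0.43, limma adjusted p = 0.229), and Ifitm1 had 3.67 ± 4.07 and 2.36 ± 1.92 (-0.12, SE 0.65, limma adjusted p = 0.964). None of them passed the threshold.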
